A study of Mus musculus with 768 samples.

Results

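The old *Pax7*-high muscle stem cells were the cells of the count table whose labels name an old mouse, and they made up 124 of its 377 cells. They came from 2 mice, O1 (56 cells) and O5 (68 cells), and each mouse was treated as 1 sample. The labels give both mice an age of 24 months, against 2 months for the 4 young mice of the table. The labels also name an old mouse O8 and a young mouse Y2, which have no column in the count table used here. All mice carried Tg:Pax7-nGFP, a transgene that puts a nuclear green fluorescent protein under *Pax7* control. Per the study's methods they were males on a C57BL/6;DBA2 F1/JRj background. Cells came from the tibialis anterior, a muscle of the lower leg. The muscle was digested with collagenase and trypsin at 37 °C, the cells were stored frozen, and after thawing the brightest 10% of nGFP cells were sorted singly into wells. The RNA was read as full-length cDNA by scM&T-seq, which sequences the transcriptome and the DNA methylome of the same cell. Only the RNA reads were used here. The gate fixes the population as the cells with the most *Pax7* reporter, so the values do not describe all muscle stem cells of an old muscle.

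Muscle stem cells lie between the muscle fibre and its basal lamina and are marked by the transcription factor *Pax7*. In adult muscle they are held out of the cell cycle, and Notch signalling and contact with the surrounding matrix are known to keep them in that state. On injury, or when taken out of the muscle, they switch on immediate early genes such as *Fos* and *Egr1* within a short time, and then the myogenic factor *Myod1*.

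Per old cell, 101755 to 462208 reads fell on genes (median 250910), and 1015 to 2997 genes were detected (median 1710). In O1 the median cell had 219652 reads and 1594 genes, and in O5 280124 reads and 1778 genes. A gene was called on in a cell with at least 1 read. Levels are given as RPM, a gene's reads divided by all reads of the cell on genes and multiplied by 1000000. The libraries carried no molecular identifiers and were amplified over 25 PCR cycles, so a read is not a separate molecule and each interval covers counting error only. Both old mice were sequenced on lane 2, and their cells shared 0 index sequences. Of the young mice, whose values are given beside some results, Y7 was on lane 2 and Y4, Y5 and Y8 were on lane 3. Their median cells had from 1823 (Y8) to 2440.5 (Y7) genes.

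*Pax7* had reads in 46 of 56 cells of O1 (82.1%, exact 95% binomial interval 69.6 to 91.1) and in 62 of 68 cells of O5 (91.2%, 81.8 to 96.7). Over all cells its median was 320 RPM in O1 and 414 RPM in O5, and the highest cells reached 6039 and 6374 RPM. The gene lies on the minus strand of chromosome 4 at 139737062 to 139833528 (GRCm38). The myogenic determination factor *Myf5* was on in 51.8% of O1 cells (38.03 to 65.3) and 69.1% of O5 cells (56.7 to 79.8), with a median of 286 and 180 RPM in the cells where it was on. *Vcam1*, an adhesion molecule of these cells, was on in 64.3% and 64.7%. *Mmp2*, an enzyme that cuts matrix, was on in 50.0% and 52.9%. The immediate early factor *Fosb* was on in all but a few cells, in 54 of 56 cells of O1 and 67 of 68 cells of O5, with medians over all cells of 1703 and 1786 RPM. The shares of the 5 genes overlapped between the mice within their intervals. *Pax7* and *Fosb* were thus read in most cells and the others in part of them, as the plot of single cells shows.

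**Figure D1:**
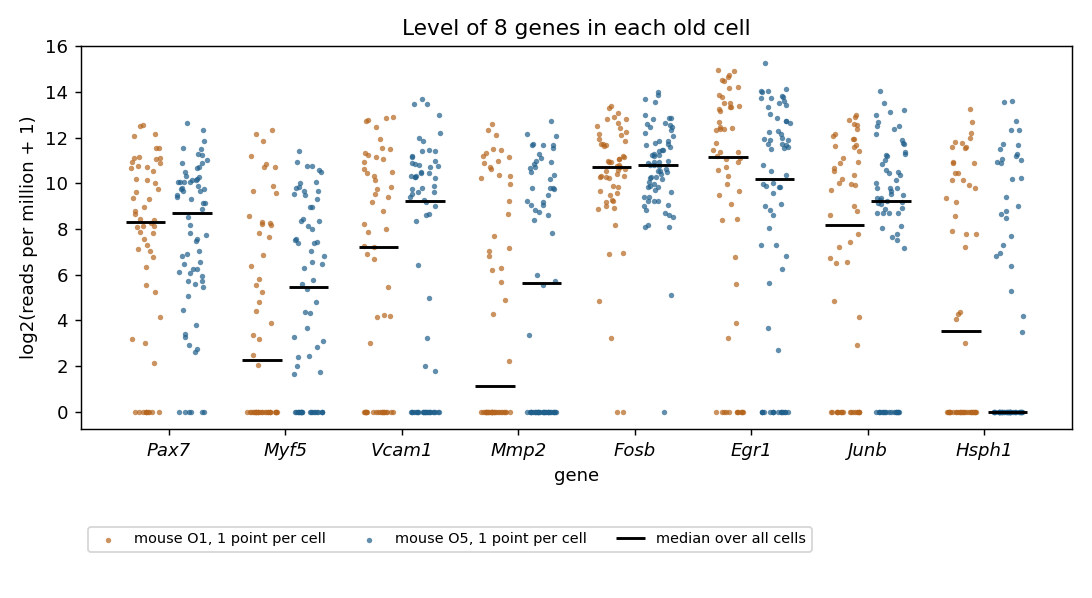
Level of 8 genes in each old cell as log2(RPM + 1), with mouse O1 at the left and O5 at the right of each gene, 1 point per cell and the median over all cells as a bar. *Fosb* was on in nearly every cell, while *Mmp2* was on in 28 of 56 and 36 of 68 cells and *Hsph1* in 29 and 29.

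Of 16 muscle stem cell markers, 15 were on in at least 20% of O1 cells and 14 of O5 cells, and every old cell had reads of the list. Of all 18204 coding genes, 88.5% (O1) and 86.1% (O5) were on in fewer than 20% of cells. *Chodl*, a membrane lectin enriched in quiescent muscle stem cells, was on in 94.6% and 95.6%, and *Sdc4*, a heparan sulphate proteoglycan that acts as a coreceptor, in every cell. The calcitonin receptor *Calcr*, a receptor of quiescent muscle stem cells, was on in 30.4% and 32.4%, with 181 and 551 RPM at the median of those cells. *Myod1* was on in 42.9% of O1 cells (29.7 to 56.8) and 50.0% of O5 cells (37.6 to 62.4), with up to 8299 and 10889 RPM. Markers of most other cell types were absent or in few cells. Among 6 endothelial markers 5 had 0 reads in all 124 cells, *Pecam1* and *Cdh5* included, which allows a share of cells with a read of up to 2.42% each and sets no limit on cells that express the gene below detection, and the remaining one, *Tek*, was on in 17.9% and 7.35% of cells. The leukocyte marker *Ptprc*, the fibroblast and fibro-adipogenic markers *Pdgfra*, *Dcn* and *Lum*, and the Schwann cell marker *Sox10* also had 0 reads. Of 7 immune markers 3 had 0 reads in both mice. Reads of that list were in 3 cells of O1 and 7 of O5 (up to 770 and 265 RPM summed). Of 6 mural cell markers 2 had 0 reads in both mice. Their list was read in 9 and 11 cells (up to 2424 and 1412 RPM). Of the Schwann cell markers 4 of 5 and of the tendon markers 3 of 4 had 0 reads. Each list was read in 1 cell of O1 and 2 of O5. Of all 25952 genes counted, 12489 had 0 reads in the old cells. *Gsn*, which severs actin, and the matrix protein *Dpt* were also on the fibro-adipogenic list but were on in many cells, *Gsn* in 66.1% and 85.3% and *Dpt* in 57.1% and 67.6%. Reads of that list of 7 genes were in 45 cells of O1 and 64 of O5. Its summed level had a median of 388 RPM in O1 and 1416 RPM in O5, against 16397 and 15157 RPM for the 16 muscle stem cell markers. *Sdc4* alone had a mean of 8056 and 7484 RPM, and the lists differ in size, so the sums are not a like comparison. Of 8 muscle fibre markers 5 had 0 reads in both mice, among them *Acta1* and *Ckm*, and the list was read in 4 cells of O1 (up to 5300 RPM summed) and 10 cells of O5 (up to 1594 RPM). The part of other cell types in the results was not tested.

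To describe what the old cells transcribe most, genes on in at least 50% of the cells of each mouse were ranked by RPM per kilobase of exons (RPKM), averaged over cells. Of 533 such genes, 80 were among the top 100 in both mice. The ranks followed each other (Spearman rho 0.928 across genes, which are not independent replicates). *Asb5*, which codes for a protein with ankyrin repeats, came first in the mean of the mice with 8852 RPKM in O1 and 6388 RPKM in O5. Its spread over cells (SD 9302 and 8584 RPKM) was larger than its mean. *Gpx3*, a secreted glutathione peroxidase, had 6391 and 7749 RPKM with a smaller spread (SD 3344 and 3271 RPKM) and was on in every cell.

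Next came the cytoskeletal actin *Actb* (4369 and 3000 RPKM), the elongation factor *Eef1a1* (3625 and 2971 RPKM) and *Sdc4* (3163 and 2938 RPKM). The metallothioneins *Mt2* and *Mt1*, which bind zinc and copper, had 2722 and 3131 RPKM, and 1450 and 2748 RPKM. The iron storage genes *Ftl1* and *Fth1* were also among the first 30, so 5 of the 30 were of the metal and oxidative stress list. A further 6 coded for ribosomal proteins, 2 for elongation factors, and 2 for the chaperones *Hsp90ab1* and *Hsp90aa1*. *Fos*, *Egr1* and *Zfp36l1* were the 3 immediate early genes among them. Other members were *Apoe*, which carries lipid (1256 and 1390 RPKM), *Tnfrsf12a*, the receptor of the cytokine TWEAK (647 and 1179 RPKM), *Errfi1*, a feedback inhibitor of the EGF receptor (979 and 776 RPKM), and *Odc1*, the first enzyme of polyamine synthesis (1106 and 609 RPKM). *Fos* and *Egr1* stood apart from the rest of the 30, with reads in 57.1% and 61.8% of cells for *Fos* and in 78.6% and 76.5% for *Egr1*. The predicted gene *Gm20721* overlaps *Gnas* and moved with it across cells (rho 0.998 and 0.996), so that its reads cannot be assigned to either.

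The mean ratio of O5 to O1 lay between 0.551 (*Odc1*) and 2.32 (*Gm20721*) over the 30 genes. Among all 533 genes 66 differed by more than 2-fold between the mice, 49 of them with the higher value in O5 and 17 in O1, and the median absolute log2 ratio was 0.46. With 1 value per mouse these ratios have no replicate check.

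**Figure D2:**
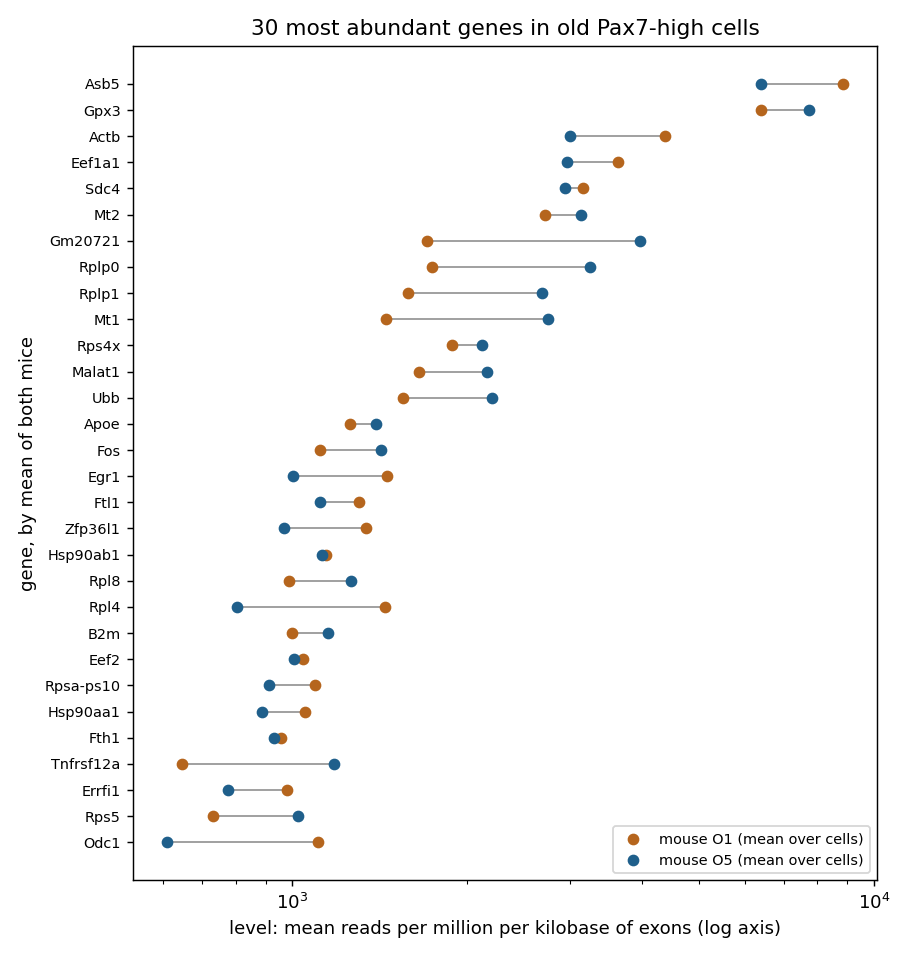
The 30 most abundant genes of the old cells, ordered by the mean of the mice, with the mean level over the cells of O1 and of O5 as points on a log axis in RPKM. *Asb5* and *Gpx3* lay above all others in both mice, and *Gm20721* had the widest gap between the mice (ratio 2.32).

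Most genes with a read in the old cells were on in few of them. Of 10289 genes with a read in both mice, 1808 (17.6%) were on in 20 to 80% of the cells of both, 194 were on in more than 80% in both and 7104 in fewer than 20% in both. Only 29 genes were on in every old cell. Of the 1613 protein-coding genes on in part of the cells, 1086 had a median of at least 100 RPM in the cells where they were on, in both mice. The same count over all genes was not made. Positive cells also lay below these medians, and a cell without a read may still hold the RNA. The 20 of them with the highest such medians are described next. These medians are in RPM and were not divided by exon length, unlike the RPKM above, which can favour long transcripts.

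*Egr1*, a zinc finger factor of the early response, led with a median of 5231 RPM in the 44 O1 cells and 3373 RPM in the 52 O5 cells where it was on. Its highest cells held 32185 and 38986 RPM, and the cells outside these 44 and 52 had no read. *Fos* had medians of 2689 and 1848 RPM in positive cells, and *Junb* 1475 and 963 RPM. *Notch1*, a receptor for ligands on neighbouring cells, was on in 48.2% of O1 cells (34.7 to 61.97) and 58.8% of O5 cells (46.2 to 70.6), with 2636 and 1546 RPM at the median of those cells. The middle 50% of its positive cells ran from 245 to 5076 RPM in O1 and from 196 to 2674 RPM in O5. *Ndrg1*, a gene of the stress response and of low oxygen, was on in 55.4% and 79.4% with 1257 and 3215 RPM.

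Some of the 20 code for matrix or junction proteins. *Thbs2*, a matricellular thrombospondin, was on in 51.8% and 39.7% of cells with 2856 and 1314 RPM. The laminin chain *Lama3* was on in 32.1% and 25.0%, the adhesive matrix protein *Svep1* in 41.1% and 50.0%, and the proteoglycan *Bgn* in 35.7% and 44.1%. *Jup*, the junction protein plakoglobin, was on in 50.0% and 30.9%, at 1210 and 1087 RPM. Secreted ligands were *Edn3*, an endothelin, with 1100 and 1054 RPM in 55.4% and 54.4% of cells, and *Clcf1*, a cytokine of the interleukin 6 family, with 1180 and 1118 RPM in 44.6% and 48.5%. The others were the magnesium transporter *Slc41a1*, *Ppp1r15a*, a phosphatase subunit that restores translation after stress, the chaperones *Hsph1* and *Dnajb1*, the lysosomal enzyme *Ctsz* and the calcium channel *Ryr3*. In all 20 genes the positive cells of both mice had medians of at least 932 RPM.

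The members of the Notch list differed in how often they were read. *Notch3* was on in 57.1% and 70.6% of cells and *Notch2* in 35.7% and 41.2%, while *Notch4* had 0 reads. The ligands *Dll1* and *Dll4* had 0 reads in all 124 cells, *Jag2* had reads in 1 cell, and *Jag1* was on in 19.6% of O1 cells and 30.9% of O5 cells. Of the target genes, *Heyl* was on in 32.1% and 32.4%, *Hey1* in 5.36% and 16.2%, and *Hes1* in 5.36% and 4.41%. The median share on over the 16 genes was 7.14% in O1 and 11.8% in O5. Of the 16, 11 in O1 and 10 in O5 were on in fewer than 20% of cells, against 88.5% and 86.1% of all coding genes. Among all 25952 genes of the count table, 12489 had 0 reads in the old cells.

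Of 32 matrix genes, 17 in O1 and 22 in O5 were on in 20 to 80% of cells, where 10.503% and 12.8% of all 18204 coding genes lay, and 15 and 10 were on in fewer. None was on in more than 80% of the cells of either mouse, a range that held 0.972% and 1.14% of all coding genes. Collagen *Col3a1* was on in 28.6% of O1 cells (17.3 to 42.2) and 51.5% of O5 cells (39.03 to 63.8), at 31.3 and 445 RPM in positive cells. The basement membrane laminin *Lama2* was on in 33.9% and 58.8%, and the inhibitor *Timp3* in 46.4% and 66.2%. Fibronectin *Fn1* had 0 reads. *Dag1*, the dystroglycan that binds laminin, was on in 62.5% and 66.2%. The laminin receptor chain *Itga6* had 0 reads, whereas *Itgb1* was on in 50.0% and 66.2%.

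Of the 20 genes of the cell cycle and its brakes, 15 were on in fewer than 20% of the cells of each mouse, and so were 88.5% (O1) and 86.1% (O5) of all coding genes. *Mki67*, *Top2a*, *Ccnb1*, *Cdk1* and *Ccne1* had 0 reads in all 124 cells, and *Ccnd1* was on in 10.7% and 5.88%. *Pcna*, which also acts in repair, was on in 48.2% and 39.7%. Among the brakes, *Btg1*, which slows proliferation, was on in 91.1% and 97.1%, and the kinase inhibitor *Cdkn1a* in 57.1% (43.2 to 70.3) and 64.7% (52.2 to 75.9), with 863 and 704 RPM in positive cells. The inhibitors *Cdkn2a* and *Cdkn2b*, which accumulate in senescent cells, had reads in 0 of 56 O1 cells and each in 1 of 68 O5 cells. Of the differentiation list *Myog*, *Myh3*, *Actc1* and *Mef2c* had 0 reads. The maintenance DNA methyltransferase *Dnmt1* was on in 1.79% and 2.94% of cells and its partner *Uhrf1* in none, while the oxidase *Tet2* was on in 14.3% and 35.3%.

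Among the receptors, *Fgfr1* was on in 76.8% of O1 cells and 94.1% of O5 cells, *Osmr*, which binds oncostatin M, in 76.8% and 80.9%, and its partner *Il6st* in 51.8% and 61.8%. Of 18 chemokine and cytokine genes 13 in O1 and 10 in O5 were on in fewer than 20% of cells, against 88.5% and 86.1% of all coding genes. *Nfkbia*, the inhibitor of NF-kB, was on in 76.8% and 72.1% of cells at 1299 and 744 RPM, and *Cxcl1*, a chemokine that draws neutrophils, in 51.8% and 48.5% at 1543 and 680 RPM. Of 17 interferon and antigen genes, *B2m*, *H2-D1* and *Stat3* were on in more than 80% of the cells of both mice. *Isg15* was on in 10.7% and 7.35%, and *Ifit3* had 0 reads.

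Whether genes were on together in the same cells was asked with Spearman's rho across the cells of each mouse, after the ranks were regressed on those of genes detected and total reads. A pair was called when rho was at least 0.4 in both mice. Of 2180916 pairs among 2089 genes, 5294 (0.243%) passed 0.4 in O1, 2129 (0.0976%) in O5 and 251 (0.0115%) in both. The median rho over all pairs was −0.000637 in O1 and 0.000254 in O5. Thus 4.74% of the pairs of O1 also passed in O5, and 11.8% of the pairs of O5 in O1. Most pairs that passed in a single mouse did not pass in the other, with 56 and 68 cells per mouse.

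Many of the 251 pairs were genes side by side. In 101 pairs the genes overlapped or lay within 50000 bases of each other, a limit chosen after seeing the pairs, and only 539 of all pairs were of this kind. Among the closest were *Lrrc61* with *Rarres2* (rho 0.996 and 0.983), *Jmjd8* with *Stub1* (0.977 and 0.993) and *Ppib* with *Snx22* (0.982 and 0.968). A further 93, of 492594 such pairs (0.0189%), held a predicted, non-coding or unmatched gene, such as *Atp5h* with *Gm10250* (0.910 and 0.945), and 3 were genes of one family, such as *Rnaset2a* with *Rnaset2b* (0.827 and 0.828). The use of strand in the counting is not stated, and reads of overlapping or near-identical genes cannot be told apart. These pairs are not described further.

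The other 54 pairs, 0.0032% of 1685465 pairs of separate protein-coding genes, held 39 genes. In O5 alone 1488 such pairs (0.0883%) passed, and of the 3887 that passed in O1 1.39% passed in O5 too. The called pairs joined into 3 groups of 3 or more genes, which held 50 of the 54, and 4 lone pairs. One group was of immediate early genes, one of heat shock genes and one of ribosomal protein genes.

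**Figure D3:**
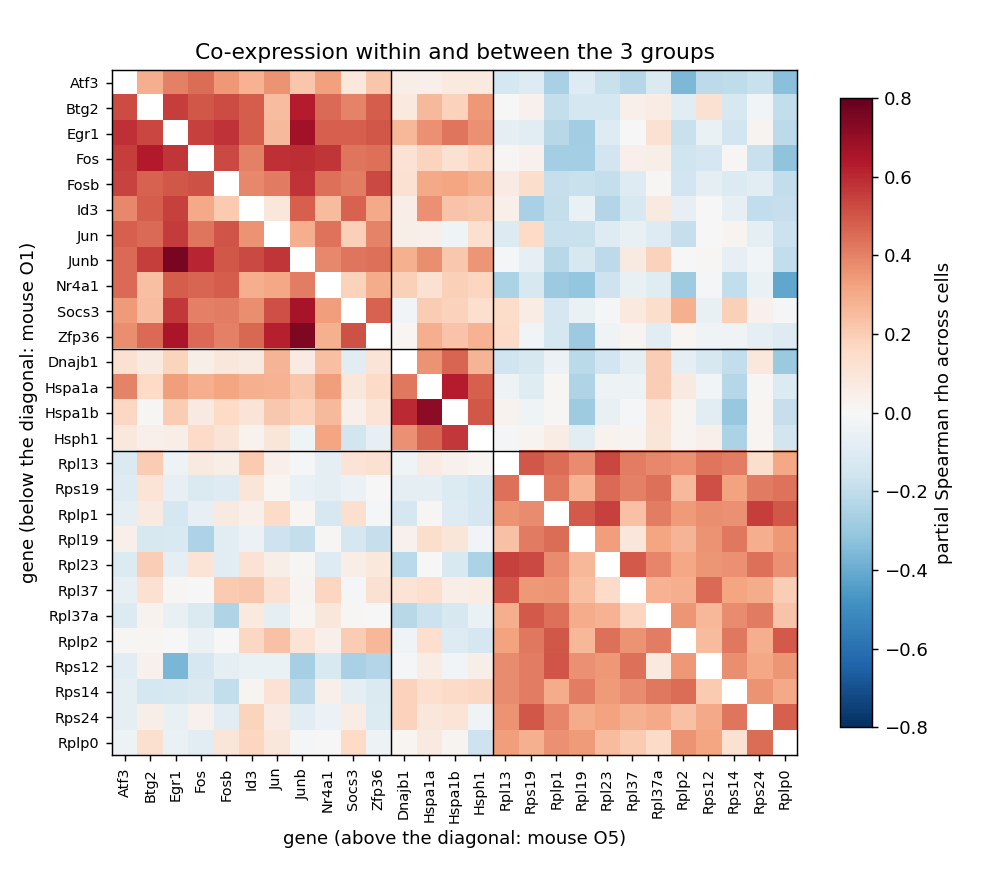
Partial Spearman rho across cells for the 11 immediate early group genes, the 4 heat shock group genes and the 12 ribosomal group genes with the most called pairs, with O1 below and O5 above the diagonal. Over all pairs within a group the median rho was 0.484 and 0.433 (early), 0.517 and 0.472 (heat shock) and 0.343 and 0.353 (ribosomal) in O1 and O5.

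The immediate early group held 11 genes and 30 of the 55 possible pairs. Its members were the AP-1 subunits *Fos*, *Fosb*, *Jun*, *Junb* and *Atf3*, the zinc finger factor *Egr1*, the nuclear receptor *Nr4a1*, the antiproliferative gene *Btg2*, the mRNA decay factor *Zfp36*, the cytokine signalling inhibitor *Socs3* and the HLH inhibitor *Id3*. *Fos* and *Egr1* had the most called partners, 9 each, and *Fosb* had 8. Over the 55 pairs the median rho was 0.484 in O1 and 0.433 in O5, with a lowest value of 0.207 and 0.0843. The strongest pair was *Junb* with *Egr1*, with a rho of 0.758 in O1 and 0.674 in O5. In O1 both were on in 34 cells, *Junb* alone in 3, *Egr1* alone in 10 and neither in 9. In O5 both were on in 44 cells, *Junb* alone in 6, *Egr1* alone in 8 and neither in 10. Most cells thus had both genes. *Egr1* without *Junb* was more frequent than the reverse in either mouse. This follows from *Egr1* being on in more cells than *Junb* (44 against 37 in O1, 52 against 50 in O5).

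Next came *Junb* with *Fos* (0.611 and 0.588), *Btg2* with *Junb* (0.554 and 0.625), and *Fos* with *Egr1* (0.575 and 0.548). *Zfp36* with *Egr1* had 0.653 and 0.498, and *Socs3* with *Zfp36* 0.511 and 0.470. *Id3*, a target of BMP signalling that was not on the immediate early list, passed with *Egr1* (0.544 and 0.487), *Junb* (0.527 and 0.481) and *Btg2* (0.486 and 0.487). Of the 25 list genes with enough reads, which form 300 pairs, 51 pairs passed in O1, 30 in O5 and 27 in both. The list's median rho was 0.155 in O1 and 0.0593 in O5, so the called pairs were a core within it. With Pearson correlation of log2(RPM + 1) in place of ranks, 15 of the 55 pairs of the group passed in both mice, and 4 of the 120 ribosomal pairs described later. *Dusp1*, *Ier2*, *Klf4*, *Klf6* and *Myc*, on in 35.7 to 83.9% of O1 cells, were outside the group.

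Across cells the group varied over a wide and unbroken range. A cell had between 1 and 11 of the 11 genes on in O1 (median 7) and between 2 and 11 in O5 (median 7.5). All 11 were on in 9 cells of O1 and 9 cells of O5, and at most 3 in 9 and 7 cells. Their summed level ran from 142 RPM in the lowest to 99356 RPM in the highest O1 cell with a median of 10423, and from 482 to 118684 RPM in O5 with a median of 9398. The middle 50% of cells lay between 3288 and 37424 RPM in O1 and between 3659 and 27330 RPM in O5, and the mice overlapped over nearly the whole range. The summed level had a plain Spearman rho with genes detected of 0.0570 in O1 and −0.330 in O5, and with total reads of −0.0611 and −0.0498. In the young mice the median rho over the same 55 pairs was 0.513 (Y4), 0.536 (Y5), 0.341 (Y7) and 0.343 (Y8). These values stand side by side without a test, and the group was picked by its values in the old mice alone.

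**Figure D4:**
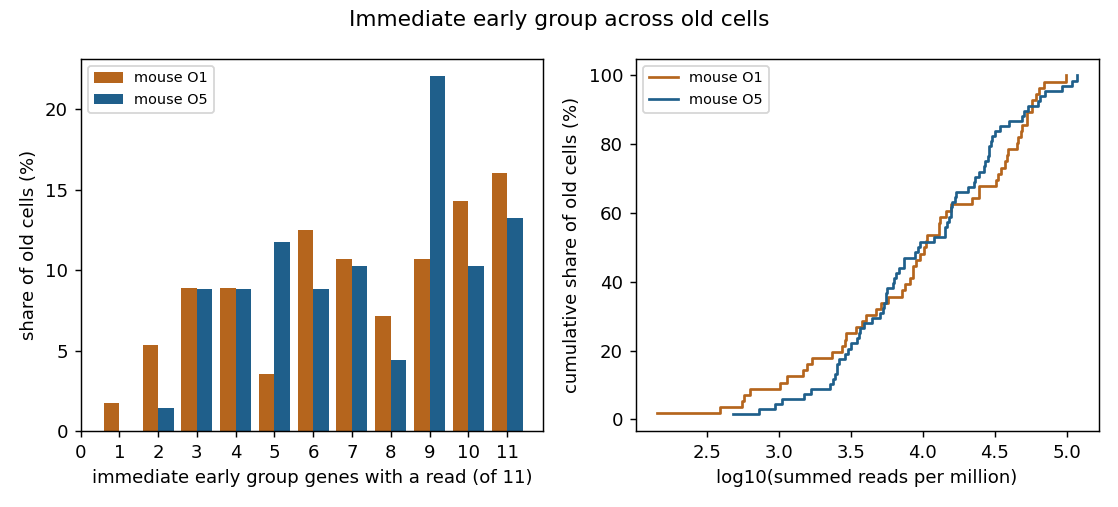
Left, share of old cells by the number of the 11 immediate early group genes with a read. Right, cumulative share of cells by the log10 of the summed RPM of the 11 genes. Both mice span the range from a few genes on to all 11, with median sums of 10423 RPM (O1) and 9398 RPM (O5).

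The promoters of the group genes were searched for 3 motifs of early response factors, since the genes moved together. RefSeq promoters (GRCm38.p6) from 250 bases before to 50 bases after the start were found for 10 of the 11 genes, all but *Egr1*, which was not searched. The CArG box, which binds serum response factor, was in 1 of the 10, *Zfp36*, against 1.81% of the 27025 genes with a promoter. The cyclic AMP element TGACGTCA was in 1, *Btg2*, against 2.03%, and the AP-1 site TGANTCA in 0, against 8.97%, both strands searched. The windows hold only the bases next to the start. The promoters with a match follow, 5′ to 3′ on the gene's strand, with the match in capitals. *Zfp36* lies on the minus strand at chr7:28379179-28379478 and *Btg2* on the minus strand at chr1:134079106-134079405.
Zfp36: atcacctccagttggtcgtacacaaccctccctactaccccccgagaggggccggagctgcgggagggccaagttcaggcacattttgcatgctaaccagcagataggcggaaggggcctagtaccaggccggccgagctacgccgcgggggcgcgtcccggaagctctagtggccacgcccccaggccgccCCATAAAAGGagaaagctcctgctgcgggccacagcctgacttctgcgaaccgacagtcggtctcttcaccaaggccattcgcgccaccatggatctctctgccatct
Btg2: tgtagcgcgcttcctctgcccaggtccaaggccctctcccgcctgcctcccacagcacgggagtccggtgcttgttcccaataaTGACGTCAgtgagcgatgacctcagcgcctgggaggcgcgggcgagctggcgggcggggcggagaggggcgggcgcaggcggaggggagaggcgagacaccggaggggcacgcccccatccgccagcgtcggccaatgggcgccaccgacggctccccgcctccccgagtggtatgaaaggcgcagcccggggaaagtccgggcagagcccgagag

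The heat shock group held 4 genes, *Hspa1a* and *Hspa1b*, which code for inducible HSP70, *Hsph1*, an HSP110 that helps HSP70 release its nucleotide, and *Dnajb1*, the HSP40 that brings it clients. *Hsph1* passed with *Hspa1b* (rho 0.568 in O1 and 0.496 in O5) and with *Hspa1a* (0.467 and 0.479), and *Dnajb1* with *Hspa1b* (0.596 and 0.465). Over the 6 pairs the median was 0.517 and 0.472. *Hspa1a* with *Hspa1b* had 0.717 and 0.628, but they are neighbours and near copies whose reads cannot be told apart. *Hspa1a* also moved with the predicted gene *Gm20481*, which overlaps it on the other strand (0.989 and 0.982), so the level of *Hspa1a* is uncertain. *Hsph1* was on in 29 cells of each mouse, 51.8% in O1 (38.03 to 65.3) and 42.6% in O5 (30.7 to 55.2), and its highest cells reached 9662 and 12593 RPM. In O1 *Hsph1* and *Hspa1b* were both on in 23 cells and both off in 16, with *Hsph1* alone in 6 and *Hspa1b* alone in 11. In O5 both were on in 21 and both off in 22, with *Hsph1* alone in 8 and *Hspa1b* alone in 17. All 4 genes were on in 15 cells of O1 and 17 of O5, and none in 8 and 7. Their summed level ran from 0 to 39991 RPM in O1 and from 0 to 25116 RPM in O5, with medians of 1281 and 1209 RPM. It had a plain rho with genes detected of 0.0605 and 0.226, and with total reads of 0.0815 and 0.256.

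The other chaperones of the list did not join the group. *Hspa8* and *Hsp90aa1* were on in every cell, and *Bag3*, a cochaperone of HSP70, in 89.3% and 86.8%. The small heat shock protein *Hspb1* was on in 60.7% and 52.9%, up to 8792 and 21165 RPM. Over the 91 pairs of the list the median rho was 0.195 in O1 and 0.197 in O5, with 9 and 8 pairs past 0.4 and 4 past it in both. The young medians over the 6 pairs of the group, which was picked by the old values alone, were 0.430 (Y4), 0.539 (Y5), 0.247 (Y7) and 0.00351 (Y8).

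**Figure D5:**
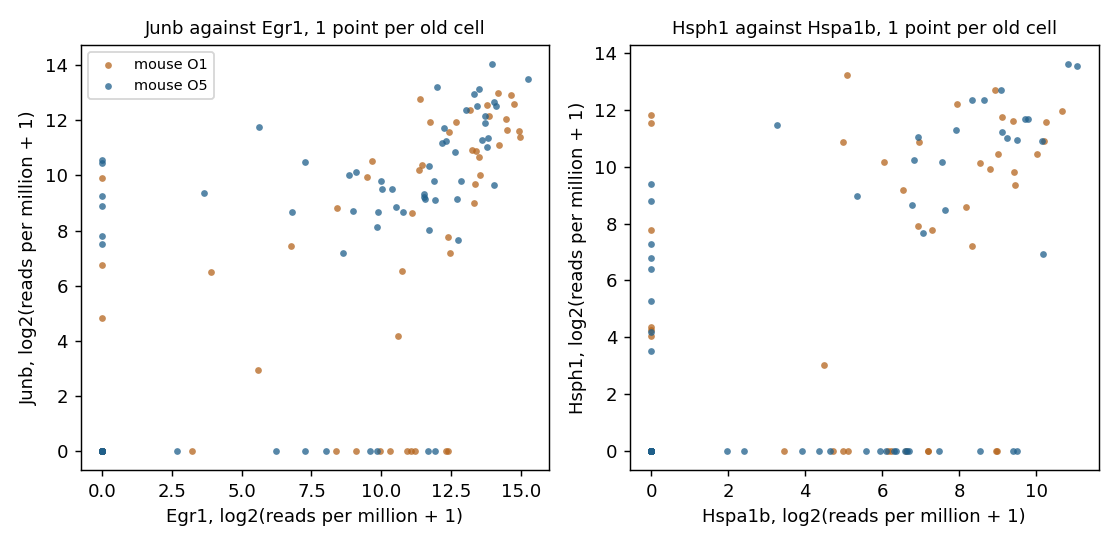
Left, *Junb* against *Egr1*, and right, *Hsph1* against *Hspa1b*, both as log2(RPM + 1), 1 point per old cell, with the cells at 0 on the axes. In O1 34 cells and in O5 44 cells had both *Junb* and *Egr1*, and 9 and 10 cells had neither.

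A heat shock element, searched as GAANNTTC, which reads the same on both strands, was in the promoters of 3 of the 4 heat shock group genes, against 9.04% of all genes with a promoter, and in 1 of 10 of the immediate early group (*Jun*). It began 104 bases before the start in *Hspa1a* and in *Hspa1b*, and in *Hsph1* it lay after the start. The 300 base windows of *Hspa1a* and *Hspa1b* differed at 4 positions. The 3 windows, all on the minus strand, are shown with the element in capitals, at chr17:34972107-34972406 (*Hspa1a*), chr17:34959189-34959488 (*Hspa1b*) and chr5:149636287-149636586 (*Hsph1*).
Hspa1a: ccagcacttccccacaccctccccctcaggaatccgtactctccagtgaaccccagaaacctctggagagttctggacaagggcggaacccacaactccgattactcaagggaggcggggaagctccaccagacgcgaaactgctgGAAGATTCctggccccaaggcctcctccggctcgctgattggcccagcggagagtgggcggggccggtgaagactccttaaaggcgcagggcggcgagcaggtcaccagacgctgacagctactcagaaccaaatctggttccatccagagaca
Hspa1b: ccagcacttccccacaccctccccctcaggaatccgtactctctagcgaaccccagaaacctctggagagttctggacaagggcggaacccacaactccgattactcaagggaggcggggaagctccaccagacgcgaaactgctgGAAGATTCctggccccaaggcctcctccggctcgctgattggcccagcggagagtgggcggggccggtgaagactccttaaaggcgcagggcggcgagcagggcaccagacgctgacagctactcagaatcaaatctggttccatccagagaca
Hsph1: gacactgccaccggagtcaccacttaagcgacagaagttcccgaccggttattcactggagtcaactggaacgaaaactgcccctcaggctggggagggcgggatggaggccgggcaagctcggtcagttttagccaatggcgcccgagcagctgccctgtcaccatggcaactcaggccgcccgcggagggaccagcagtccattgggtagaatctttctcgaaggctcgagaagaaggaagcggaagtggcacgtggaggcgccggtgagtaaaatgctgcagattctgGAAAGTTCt

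The ribosomal group held 16 genes, 15 of ribosomal proteins and *Wdr89*, with 17 of 120 possible pairs called. *Rpl13*, of the large subunit, and *Rps19*, of the small, had 5 called partners each, and *Rplp1*, an acidic stalk protein, had 3. The strongest pairs were *Rplp2* with *Wdr89* (0.630 and 0.567), *Rpl13* with *Rpl23* (0.548 and 0.532) and *Rplp1* with *Rps27* (0.454 and 0.467). *Wdr89* does not code for a ribosomal protein and had a median of only 26.2 RPM in O1 and 30.2 RPM in O5. Pairs were classed as separate by position, annotation and symbol, not by sequence. Whether *Wdr89* took reads of another gene was not tested. *Rpl11* with *Rps20* (0.571 and 0.440) was called but not joined to the others. Over the 120 pairs the median rho was 0.343 in O1 and 0.353 in O5, and in the young mice between 0.231 (Y8) and 0.306 (Y4). Each of the 16 genes was on in at least 80.4% of the cells of each mouse, so here mostly the level differed between cells. Their summed level ran from 1681 to 18049 RPM in O1 with a median of 7948, and from 4481 to 25859 RPM in O5 with a median of 13241. The summed level had a plain rho with total reads of −0.394 and −0.432, and with genes detected of −0.121 and −0.412. Over the 79 ribosomal protein genes with enough reads the median rho was 0.176 and 0.180, and 210 pairs in O1 and 135 in O5 of 3081 passed 0.4, 17 in both. Reads on ribosomal proteins made up a median of 4.11% of a cell's reads in O1 and 5.33% in O5.

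Between the groups, the summed levels of the early and the heat shock genes had a partial rho of 0.204 in O1 and 0.351 in O5. The early and the ribosomal sums had −0.0232 and −0.291, and the heat shock and ribosomal sums −0.0639 and −0.164. The lone pairs other than *Rpl11* with *Rps20* were *Spopl* with *Ube2d3* (0.540 and 0.529), a BTB adaptor of a ubiquitin ligase and a ubiquitin conjugating enzyme, *Ptprz1* with *Atp5l* (0.480 and 0.439), a receptor phosphatase and a subunit of ATP synthase, and *Yars* with *Snrpf* (0.409 and 0.433). *Spopl* had a median of only 16.7 RPM in its positive O1 cells and 17.2 RPM in those of O5. Whether it shared reads with another gene was not tested. In the young mice *Spopl* with *Ube2d3* had between 0.479 (Y7) and 0.806 (Y8). There *Ptprz1* with *Atp5l* had between −0.242 (Y8) and −0.0405 (Y5), and *Yars* with *Snrpf* between −0.135 (Y4) and 0.120 (Y5). These pairs, like the groups, were picked by high values in the old mice alone. The old and young values are therefore not a like comparison, and no difference with age was tested. Pairs with rho of −0.4 or lower in both mice numbered 4. *Egr1* was in 2 of them, with *Spsb1* (−0.506 and −0.441) and *Ankrd28* (−0.439 and −0.475), and *Fosb* was in 1, with *Akap2* (−0.427 and −0.407).

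The 5 marker genes did not move together. Their 10 pairs had rho between −0.251 and 0.319 in O1 and between −0.235 and 0.210 in O5, with *Pax7* and *Fosb* highest and *Vcam1* and *Fosb* lowest in both. *Pax7* had its closest partners among early genes, *Egr1* (0.325 and 0.335) and *Btg2* (0.275 and 0.334), and *Vcam1* had *Txnrd1*, a thioredoxin reductase (0.325 and 0.309). *Myf5* had *Nfil3* (0.357 and 0.281) and *Calcr* (0.376 and 0.275), and *Mmp2* had *Rpl12* (0.333 and 0.275). Of the 25 partners listed, 5 for each gene, only those of *Fosb* passed 0.4 in both mice. Weak values in sparse counts are given as a description. Most other lists lay close to the median of all pairs. The quiescence and identity list had medians of −0.00406 and 0.0137 over 171 pairs, the matrix list 0.0348 and 0.0186 over 120, and the adhesion list 0.00657 and 0.0204 over 45. The chemokine and cytokine list had 0.120 and 0.0496 over 10 pairs. The interferon and antigen list had 0.237 and 0.147 with all 15 pairs above 0 in both mice, and 0 pairs past 0.4 in both.

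Cell-to-cell spread was measured per gene as the distance to the median (DM), the log10 squared coefficient of variation minus the rolling median of genes of like mean. The 100 genes with the highest DM were taken from 7408 genes measured in O1 and 7955 in O5. Of these 100 in each mouse, 4 were shared: *Cyr61*, *Neu2*, *Cxcl1* and *Thbs1*. Whether 4 is more than unrelated rankings would share was not tested. Across the 6169 genes measured in both mice the DM had a Spearman rho of 0.483. *Cyr61*, a matricellular target of YAP, had a DM of 0.738 and 0.674 and was on in 30.4% and 32.4% of cells. *Neu2*, a sialidase, had 0.636 and 0.640, and 1 cell held 43.2% of its reads in O1 and 59.9% in O5. *Cxcl1* had 0.589 and 0.942, with 15.6% and 19.7% of its reads in the highest cell, and so did not rest on 1 cell. *Nr4a1* of the early group had 0.519 and 0.587. The remaining coding genes among the 10 highest by the lower DM of the mice were *Cyp26a1*, which breaks down retinoic acid, *Mdc1*, *Ttyh3*, *Ccl7*, *Nlrc5* and *Arrdc2*, and several of them rested on single cells. The highest cell held 99.8% and 83.7% of the reads of *Ttyh3*, 80.1% and 74.1% of *Ccl7*, 72.9% and 76.8% of *Arrdc2*, 79.7% and 38.9% of *Nlrc5*, 58.99% and 41.9% of *Mdc1* and 44.3% and 42.4% of *Cyp26a1*. For *Cyr61* it held 39.2% and 27.9%. Ribosomal proteins lay at the other end, with a median DM of −0.843 and −0.666 over 80 genes, against −0.253 and −0.309 for the elongation and initiation list. The list of YAP target and matricellular genes had 0.223 and 0.213 over 13 genes, against −0.000377 and 0.000414 over all genes.

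The mice differed most in *Thbs1*, thrombospondin 1. It was on in 7 of 56 cells of O1 (12.5%, 5.18 to 24.1) and 41 of 68 cells of O5 (60.3%, 47.7 to 71.97), with a mean of 95.6 RPM against 5476 RPM. In O1 1 cell held 92.3% of the reads, and the positive cells of O5 had a median of 4426 RPM. Of 5301 coding genes on in at least 10% of the cells of either mouse, 18 differed by more than 30 percentage points, 14 of them higher in O5, and 64.01% of all had the higher share in O5. The next were *Rpl21* (55.4% and 95.6%), the superoxide dismutase *Sod1* (51.8% and 91.2%), the EGF receptor *Egfr* (41.1% and 79.4%), the LIM protein *Crip1* (57.1% and 94.1%) and the secreted *Fstl1* (17.9% and 54.4%). *Plaur*, the urokinase receptor, had 19.6% and 55.9%, *Slc39a1* 28.6% and 64.7%, *Ptp4a2* 28.6% and 64.7% and *Spopl* 26.8% and 63.2%. With every cell thinned to 100000 reads, *Thbs1* stayed at 12.5% and 60.3%, and *Egfr* was at 41.1% and 76.5%. The gap narrowed for *Sod1* (50.0% and 80.9%), and it went under 30 points for *Slc39a1* (28.6% and 51.5%), *Ptp4a2* (26.8% and 51.5%) and *Spopl* (26.8% and 55.9%). In the thinned cells the median number of genes was 1496 in O1 and 1653 in O5. With 2 old mice such differences have no replicate check.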

How the data were processed

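HiSat2 was used by the authors for alignment and SeqMonk for quantitation, on GRCm38 per the labels. The deposited values are raw counts per gene and cell, without normalization, for cells that had passed the authors' filters on genes and reads. Neither annotation nor strand setting is given in the sources used here. Each of the 377 cells was assigned to its mouse from the labels, with 0 columns unused. Counts became RPM per cell. Symbols and chromosomes of 22710 of 25952 rows matched GENCODE M21 (GRCm38), which gave gene ends, exon lengths and biotypes, and unmatched symbols such as Cyr61 were treated as not coding. The 124 rows with a repeated symbol were left out. RPKM used merged exons of at least 200 bases. Pairs needed reads in at least 20% of the cells of each mouse. Neighbours lay within 50000 bases. DM was computed for genes averaging 10 RPM or more, over windows of 100 genes. No test was run: each mouse is 1 sample, cells are not replicates, and correlations across cells carry no p. Shares have exact (Clopper-Pearson) 95% intervals, and a count of 0 allows 3 counts. Genes were named by rule: the 5 marker genes, the 30 most abundant, the 20 part-on coding genes with the highest median in positive cells, the members of co-expressed groups and the strongest called pairs, the 10 coding genes with the highest DM, the 10 with the largest difference in share, 5 partners of each marker, and members of fixed lists; genes of neighbour pairs, negative pairs and other lists were picked as examples after their values were seen. Some genes that the rules select are not reported here. Members and lists were chosen with earlier results of these data known. Scripts were tested on simulated data and used Python 3.11.15, numpy 2.4.6, scipy 1.17.1, pandas 2.3.3 and networkx 3.6.1.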

Additional observations from a re-analysis of the deposited data

How the results depend on the processing

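No paired analysis was possible because no result comes from a test between groups. Counts moved with how they were defined. Genes on in part of the cells numbered 4161 at shares of 10 to 90%, and 2152 to 2650 in single mice. Called pairs numbered 502 over genes in 10% of cells and 152 over genes in 40%, 922 at a threshold of 0.3, 1575 in cells with at least the median genes detected, where each mouse has fewer cells, and 2129 to 5294 in single mice. Counts of pairs of separate genes, a count added after seeing the data, were 94 with plain Spearman rho, 87 over genes in 10% of cells, 544 at a threshold of 0.3, 9 at 0.5, 994 in cells with at least the median genes detected and 1488 to 3887 in single mice. At 0.5 the heat shock group kept 0 pairs, the immediate early group 6 and the ribosomal group 2. Of the 54 pairs, 22 were also called by Pearson correlation of log2(RPM + 1), 30 with log2(RPM + 10) and 48 after thinning to 100000 reads. Against 30 pairs of the immediate early group, the group's genes held 15 and 21 under the Pearson settings, and ribosomal pairs numbered 4 and 7 against 17. The heat shock list's median rho, lower of the mice, moved to 0.208 with plain rho and 0.192 after thinning, and the ribosomal list's to 0.192 with plain rho and 0.179 after thinning. The immediate early list's median stayed within the spread between the mice under both settings. The cause of these changes was not tested. Of 22 values of other lists under these settings, 19 moved by less than the spread between the mice and 3 by more. Abundant genes shared by both mice numbered 79 to 81 under the other settings, and 54 of the 80 were among them when length was ignored.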
